A study of Rattus norvegicus with 12 samples.

Results

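The vacuolar H+-ATPase (V-ATPase) pumps protons into lysosomes, endosomes and secretory vesicles. Its V1 sector, in the cytosol, hydrolyses ATP, and its V0 sector, in the membrane, turns a ring of proteolipid subunits and lets protons through. The 9 genes described here encode V0 subunits and the accessory proteins that sit with them in the membrane: Atp6v0a1, Atp6v0a2, Atp6v0b, Atp6v0c, Atp6v0d1, Atp6v0e1, Atp6v0e2, Atp6ap1 and Atp6ap2. They were taken by symbol from the 33294 genes of the raw count table, and all 9 passed the filter on low counts in every comparison. The set was chosen because Atp6v0e1 was lower in MBNL KD, so every value of MBNL KD against D1 below, which is the measured difference that the set was selected on, is a description, and where calls are counted there nothing is read from the count.

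The cells were PAC1, a rat pulmonary artery smooth muscle line, sequenced as poly(A) RNA with 3 libraries in each of 4 groups. D1 was the more differentiated culture (PAC1-D) with control siRNA, and P was the more proliferative culture (PAC1-P) with the same control, kept by splitting the cells at a higher dilution and more often. RBPMS KD1 was PAC1-D with siRNA against Rbpms, and MBNL KD was PAC1-D with siRNAs against Mbnl1 and Mbnl2 together; the titles of those 3 libraries name only MBNL1, while their treatment label names both. All 12 libraries received 2 lipid transfections of siRNA, 90 pmol each time and 24 h apart per the labels, and were taken 48 h after the last; the study's methods give other times. All came from 1 cell line, and in bulk RNA fewer cells of a type and less RNA per cell cannot be told apart.

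The siRNA sense strands are shown because they define the groups. They are written 5′ to 3′ in the letters of the study's oligonucleotide list, with no part in capitals.
C2 (control): aagguccggcucccccaaaug
RBPMS: ggcggcaaagccgagaaggcgaaca
MBNL1: cacggaauguaaauuugcauu
MBNL2: gaagaguaauugccugcuuuu
The targets were lower in the groups labelled for them. Rbpms stood at 3337 ± 60.3 scaled counts in RBPMS KD1 against 13346 ± 701 in D1 (SD, n = 3 each), and at 841 ± 8.86 in P. Mbnl1 stood at 7307 ± 85.6 in MBNL KD against 30833 ± 460 in D1, and Mbnl2 at 4732 ± 80.5 against 16016 ± 174. Scaled counts are counts per library after TMM scaling to a common library size. Library totals ran from 80842635 to 90771289 counts, the lowest being MBNL KD replicate 3, and the lowest raw count of any of the 9 genes in any library was 652. The summed scaled counts of 8 smooth muscle markers ran from 871742 to 916188 in D1, from 18688 to 19856 in P, from 434073 to 449797 in RBPMS KD1 and from 694097 to 704524 in MBNL KD, a sum of which Acta2 and Tagln were the largest parts in D1. All 8 markers fell in P and in RBPMS KD1. In MBNL KD, 6 were lower while Myh11 (log2 fold change 0.54) and Cnn1 (0.12) were higher. The part of these markers in the V-ATPase results was not tested.

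Many lysosomal genes carry the letters TCACGTGA near their start; they are the core of the element bound by TFEB and its relatives, which switch on lysosomal genes. This palindrome reads the same on both strands. It was searched in RefSeq promoters of 300 bases (build GRCr8), of which 8 of the 9 genes have an entry; Atp6v0e2 is missing. It occurred in 2 of those 8, against 0.777% of all 33469 promoters, in 0 of 10 V1 promoters and in 4 of 24 promoters of lysosomal proteins (Cln3, Ctsd, Lamp1 and Mcoln1). The shorter CACGTG inside it occurred in the same 2 promoters and in 6.42% of all. It was in 0 of 10 V1 promoters and in 8 of 24 promoters of lysosomal proteins. The windows, on the minus strand, are shown with the motif in capitals.
Atp6v0e1, chr10:17007116-17007143: cgcgcgccggTCACGTGAgcctctgttg
Atp6v0d1, chr19:50357284-50357311: cccattgtggTCACGTGAgatgcagtgc
In Atp6v0e1 the motif began 24 bases into the transcript, and in Atp6v0d1 it began at position -53 before the start. Both genes are described below, and a match of letters is no measurement of binding.

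Atp6v0e1 encodes the small hydrophobic e subunit, and its 3 MBNL KD libraries held 890, 962 and 963 scaled counts. The D1 libraries held 7050.2, 7081 and 7179, the P libraries 6340.0, 6207 and 6307, and the RBPMS KD1 libraries 8189, 8839 and 8182. MBNL KD was therefore the low group, and no library of any group overlapped another group. The MBNL KD mean was 938 ± 42.3, or 13.2% of the D1 mean of 7103 ± 67.1 (SD, n = 3 each). The fitted log2 fold change was -2.91 ± 0.039 (SE), or 7.54-fold lower. Ordered by fold change, it was number 14 from the lowest of 16053 genes tested in that comparison. Outside the comparison that chose it, Atp6v0e1 moved little: it fell by 0.18 on the log2 scale in P against D1 (SE 0.028, adjusted p = 1.0e-06) and rose by 0.24 in RBPMS KD1 (SE 0.031, adjusted p = 9.7e-08). These and later adjusted p-values come from the quasi-likelihood test of edgeR, adjusted by the Benjamini-Hochberg method over all genes tested.

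Atp6v0e2 encodes the other e subunit, best known from brain, and it was not higher in the cells where Atp6v0e1 was low. Its scaled counts were 792, 835 and 839 in D1, and 718, 724 and 711 in MBNL KD. All 3 MBNL KD libraries thus lay just below all 3 of D1, with a log2 fold change of -0.19 ± 0.065. The P libraries held 1471, 1631 and 1523, and the RBPMS KD1 libraries 1367, 1288 and 1192. Atp6v0e2 was the member that rose most in both of these groups: 1.87-fold in P (log2 fold change 0.91 ± 0.058, adjusted p = 1.0e-15) and 1.56-fold in RBPMS KD1 (0.64 ± 0.061, adjusted p = 4.2e-10).

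**Figure D1:**
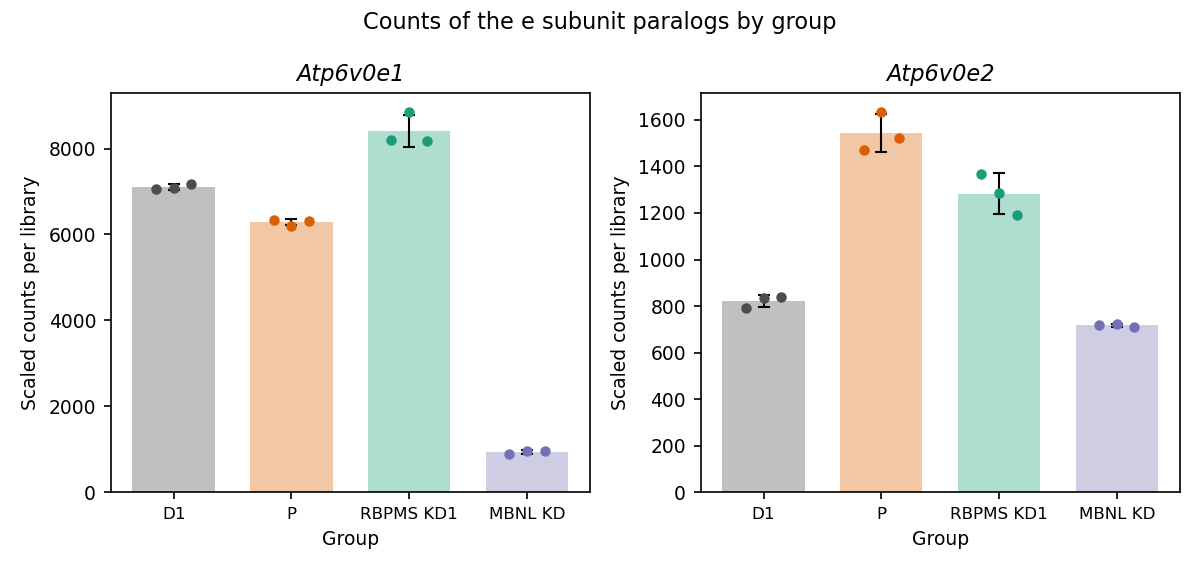
Scaled counts per library (y axis, linear from 0, with a different range in each panel) of Atp6v0e1 (left) and Atp6v0e2 (right) in the 4 groups (x axis). Bars are means, error bars SD over 3 libraries and points single libraries; Atp6v0e1 averaged 938 in MBNL KD against 7103 in D1, while Atp6v0e2 was highest in P at 1542.

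The balance of the e paralogs moved accordingly. Without transcript lengths the levels of the paralogs cannot be compared, but their count ratio can be compared between groups. Atp6v0e2 counts were 11.2%, 11.8% and 11.7% of Atp6v0e1 counts in the D1 libraries, and 80.7%, 75.3% and 73.8% in the MBNL KD libraries, a difference of 2.73 in the log2 ratio that is given as a description. In P the ratio was 23.2%, 26.3% and 24.1%, higher than in D1 by 1.08 on the log2 scale, and in RBPMS KD1 it was 16.7%, 14.6% and 14.6%, higher by 0.40. Neither group overlapped D1, and each gave p = 0.1 in a two-sided exact permutation test, the smallest value that 3 libraries against 3 allow. The rise in P came with a higher Atp6v0e2 and a lower Atp6v0e1, and that in RBPMS KD1 with both genes higher.

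The a subunits form the path of the protons through the membrane and differ in the compartments they serve. Atp6v0a1 was the other member with a large difference in MBNL KD: its libraries held 5581, 5567 and 5414 scaled counts, against 10557, 10828 and 10563 in D1. The group mean was 51.8% of D1, with a log2 fold change of -0.94 ± 0.026, just short of a fold of 2. Atp6v0a1 fell by 0.40 in P (SE 0.028, adjusted p = 9.5e-15) and by 0.18 in RBPMS KD1 (SE 0.027, adjusted p = 2.6e-06). MBNL KD was thus its lowest group, and the next lowest was P at 8072 ± 226.

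Atp6v0a2, the paralog that serves Golgi and endosomal membranes, did not have this pattern. Its means were 2693 ± 59.7 in D1, 1971 ± 53.3 in P, 2320 ± 123 in RBPMS KD1 and 2494 ± 46.2 in MBNL KD (SD, n = 3 each). It was lowest in P, where it fell by 0.45 on the log2 scale (SE 0.042, adjusted p = 1.3e-11), and it fell by 0.21 in RBPMS KD1 (SE 0.043, adjusted p = 1.1e-04). In MBNL KD its log2 fold change was -0.10 ± 0.039, and -0.042 under quantile normalization. The count ratio of Atp6v0a2 to Atp6v0a1 was higher in MBNL KD than in D1 by 0.84 on the log2 scale, again a description, while in P and RBPMS KD1 it differed from D1 by -0.051 and -0.038 (exact permutation p = 0.1 and p = 0.6).

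Atp6v0c and Atp6v0b encode the proteolipids of the rotating ring, and their fold changes had opposite signs in RBPMS KD1. Atp6v0c held 19713, 19424 and 19555 scaled counts in D1 and 13013, 13281 and 13793 in P. It was the member that fell most in P, by 0.55 on the log2 scale (SE 0.026, adjusted p = 1.9e-19). In RBPMS KD1 it held 18911, 18201 and 18713, a fall of 0.07 (SE 0.025, adjusted p = 0.017) whose call was lost without D1 replicate 1 (-0.068, adjusted p = 0.057), without RBPMS KD1 replicate 2 (-0.054, adjusted p = 0.11), under quantile normalization (-0.028, adjusted p = 0.33) and by limma on the deposited normalised values (-0.028, adjusted p = 0.34). In MBNL KD Atp6v0c averaged 17285 ± 337 against 19564 ± 145 in D1. Its log2 fold change there was -0.17 ± 0.025, and between -0.19 and -0.088 over the alternatives. RefSeq lists pseudogenes of Atp6v0c, so some of its reads may be shared with them, which was not tested.

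Atp6v0b held 1884, 1717 and 1876 scaled counts in D1, against 2473, 2288 and 2192 in RBPMS KD1 and 2258, 2389.5 and 2321 in MBNL KD. Both knockdowns lay above D1, and they overlapped each other, the only neighbouring groups of any member to do so. Atp6v0b rose by 0.35 in RBPMS KD1 (SE 0.050, adjusted p = 7.3e-07), had a log2 fold change of 0.35 ± 0.046 in MBNL KD, and fell by 0.15 in P (SE 0.049, adjusted p = 0.0076).

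Atp6v0d1 encodes the subunit that couples the ring to the central stalk of V1, and it varied least: its highest group mean was 1.15 times its lowest. Its libraries held 15700.2, 15414 and 15641 scaled counts in D1, 16663, 16553 and 16528 in P, and 16824, 17119 and 17175 in RBPMS KD1. It rose by 0.088 in P (SE 0.024, adjusted p = 0.0015) and by 0.13 in RBPMS KD1 (SE 0.025, adjusted p = 5.2e-05). In MBNL KD it held 15283, 14716 and 14562, a log2 fold change of -0.063 ± 0.024 whose sign turned under quantile normalization (0.0039) and on the normalised values deposited (0.0034).

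Atp6ap1 (Ac45), a glycoprotein that helps V0 to assemble and to reach its membrane, held 21774, 21416 and 20662 scaled counts in D1. The RBPMS KD1 libraries held 11873, 11991 and 11592, or 55.5% of D1, while the MBNL KD libraries held 29054, 28864 and 27662, or 134% of D1. The knockdowns thus lay on either side of D1 with no overlap, as they did for 4 of the 9 genes and for 19.1% of the 15678 genes tested in both, a count from which nothing is read. The fall in RBPMS KD1 was the largest change of any member there, 1.80-fold (log2 fold change -0.85 ± 0.027, adjusted p = 1.3e-20), number 467 from the lowest of 15904 genes, and the log2 fold change in MBNL KD was 0.43 ± 0.027. P was close to D1, at 19991, 19552 and 18903, and its fall of 0.13 (SE 0.026, adjusted p = 5.4e-05) was not called under quantile normalization (-0.024, adjusted p = 0.39) or by limma on the deposited normalised values (-0.025, adjusted p = 0.47).

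Atp6ap2, the (pro)renin receptor, joins V0 in the membrane as Atp6ap1 does. Its D1 libraries held 4122, 3863 and 3981 scaled counts. The RBPMS KD1 libraries held 4946, 5168 and 5004, and the MBNL KD libraries 6142, 6547 and 6017. It rose by 0.34 in RBPMS KD1 (SE 0.034, adjusted p = 1.4e-09), where Atp6ap1 fell. Its MBNL KD mean was 156% of that of D1 (fitted log2 fold change 0.65 ± 0.034), the largest upward difference of the 9 genes there. In P it held 3301, 3371 and 3479, a fall of 0.24 (SE 0.036, adjusted p = 4.4e-07).

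**Figure D2:**
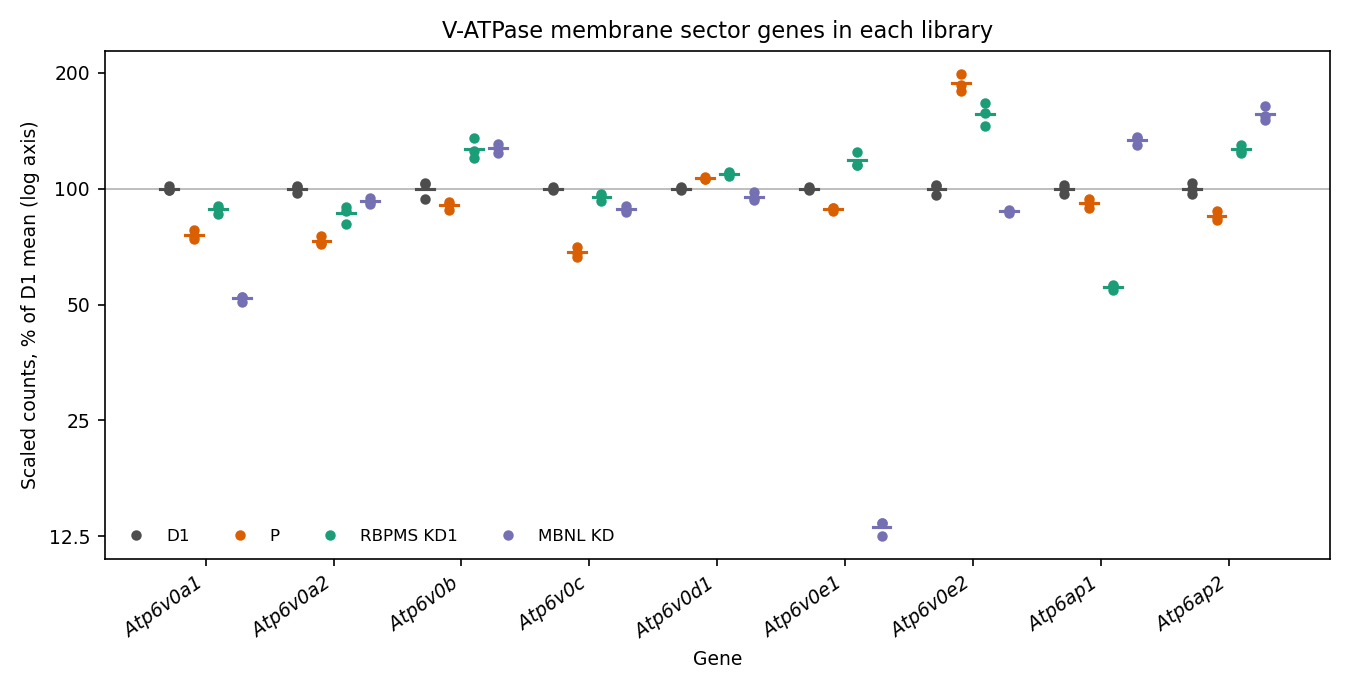
Scaled counts of the 9 genes in each of the 12 libraries as a percent of the D1 mean (y axis, log scale); points are libraries, short bars group means, colours the groups, and the grey line is 100%. Atp6v0e1 at 13.2% and Atp6v0a1 at 51.8% in MBNL KD, and Atp6ap1 at 55.5% in RBPMS KD1, lie lowest.

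Counted over the 9 genes, P against D1 had 2 higher and 7 lower past an adjusted p of 0.05. Of all 16814 genes tested there, 77.9% passed, 40.4% higher and 37.6% lower, so passing is the usual case in these libraries. The median log2 fold change was -0.18 over the 9 genes and 0.020 over all genes, and the median size regardless of sign was 0.24 against 0.46. None of the 9 also had a fold over 2 (0 of 9; all 9 passed without that requirement, and the count was also 0 with DESeq2), which 27.6% of all genes had, 16.4% higher and 11.2% lower.

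RBPMS KD1 against D1 had 5 higher and 4 lower, where 59.1% of 15904 genes passed, 29.5% higher and 29.5% lower. The median log2 fold change was 0.13, against 0.0043 over all genes, and the median size 0.24 against 0.23. With a fold over 2 the count was 0 of 9 by edgeR and by DESeq2, all 9 having passed without it, and 4.68% of all genes passed both, 3.06% higher and 1.62% lower. In MBNL KD against D1, which chose the set, 3 were higher and 6 lower by the same rule, beside 67.5% of 16053 genes, 33.8% higher and 33.7% lower. Nothing is read from that count, which was 3 and 4 under quantile normalization and by limma on the deposited normalised values. Only Atp6v0e1 also had a fold over 2, where 10.2% of all genes did, 6.1% higher and 4.14% lower. These 3 comparisons share the D1 libraries, so their values are not independent of each other. With another scaling the genes past both thresholds split otherwise: 59.4% of them were higher in P, 65.4% in RBPMS KD1 and 59.6% in MBNL KD, and under quantile normalization 45.8%, 54.5% and 50.7%.

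**Figure D3:**
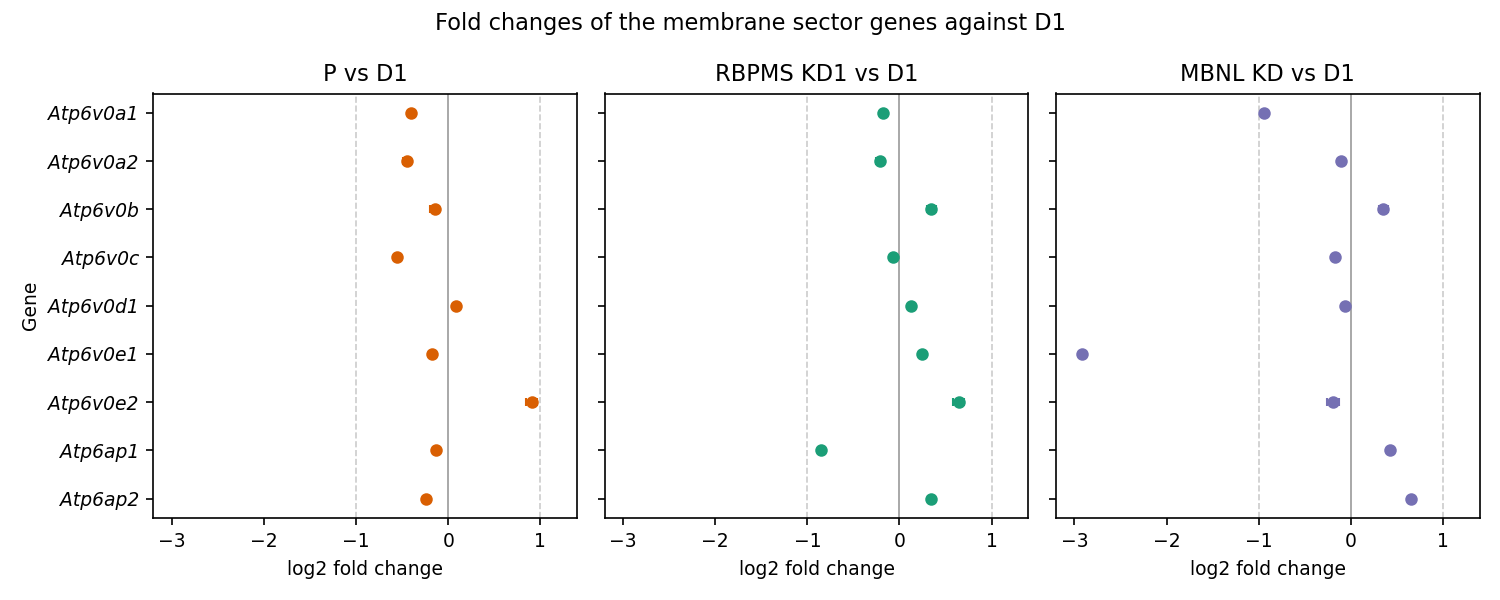
Log2 fold changes against D1 (x axis, the same range in each panel) of the 9 genes (y axis) in P, RBPMS KD1 and MBNL KD; bars are SE, often smaller than the point, and dashed lines mark a fold of 2. Atp6v0e1 at -2.91 in MBNL KD is the only point beyond a dashed line.

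P and RBPMS KD1, compared directly and without the D1 libraries, differed at all 9 genes, where 79.4% of 16899 genes passed the test, 40.5% higher in P and 39% lower. Only 2 were higher in P: Atp6ap1 by 0.70 on the log2 scale (SE 0.028, adjusted p = 1.1e-21) and Atp6v0e2 by 0.24 (SE 0.057, adjusted p = 2.8e-04). Of the 7 that were lower in P, Atp6ap2 differed most (-0.60 ± 0.036, adjusted p = 7.6e-17), followed by Atp6v0b (-0.51 ± 0.049), Atp6v0c (-0.50 ± 0.028) and Atp6v0e1 (-0.44 ± 0.032). The difference of Atp6v0d1 (-0.065 ± 0.026, adjusted p = 0.025) was not called under 11 of 14 alternatives, the leaving out of P replicate 2 (adjusted p = 0.063) or replicate 3 (0.068) and of RBPMS KD1 replicate 2 (0.077) or replicate 3 (0.089) among them.

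The summed scaled counts of the 9 genes were 83515 ± 625 in D1, 72331 ± 185 in P, 76243 ± 599 in RBPMS KD1 and 78894 ± 1541 in MBNL KD (SD, n = 3 each). Every library of the other groups lay below every D1 library, and the means were 86.6%, 91.3% and 94.5% of D1. In MBNL KD the fall of Atp6v0e1 alone, the gene that chose the set, was larger than that of the sum (7103 to 938). In RBPMS KD1 the fall of Atp6ap1 alone was also larger than that of the sum (21284 to 11818.5). In each knockdown the remaining genes together thus averaged above D1. The summed V1 genes came to 81411 ± 1227, 86708 ± 1601, 92045 ± 824 and 92249 ± 367, or 106.5%, 113% and 113% of D1, with every library above those of D1. In P the rise of Atp6v1d alone was larger than that of the V1 sum (11249.5 to 19624). The other V1 genes together thus averaged below D1 there. The sums were not tested. Their sizes rest on the scaling: on plain CPM of the raw library totals, an alternative chosen after seeing the data, V0 was at 97.2%, 92.4% and 98.5% of D1 and V1 at 119.6%, 114% and 118%, and 1 MBNL KD library reached the D1 range of V0.

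The V1 sector has 13 listed genes, of which 12 could be tested. In P, 5 were higher, 6 lower and 1 did not pass, beside 40.4% and 37.6% of all genes. In RBPMS KD1, 8 were higher, 1 lower and 3 did not pass, beside 29.5% of all genes in each direction. The counts for MBNL KD, as a description, were 6 and 3, beside 33.8% and 33.7%. Atp6v1d, of the central stalk, was among the higher genes in each: 11249 ± 291 scaled counts in D1, 19624 ± 705 in P, 16813 ± 196 in RBPMS KD1 and 16652 ± 20.0 in MBNL KD. Atp6v1b2, a B subunit of the catalytic head, rose by 0.38 in P (adjusted p = 2.5e-14) and had a log2 fold change of 0.027 in RBPMS KD1 (adjusted p = 0.44) and of -0.51 in MBNL KD. These 2 genes were picked after their values were seen, as were Rnasek and Tcirg1 below.

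By the naming rule the V1 genes past both thresholds were low in count. Atp6v1e2, the second E subunit of the stator and known chiefly from testis, rose from 73.5 ± 16.8 in D1 to 320 ± 15.6 in P (log2 fold change 2.12 ± 0.15, adjusted p = 1.4e-14) and to 149 ± 8.36 in RBPMS KD1 (1.02 ± 0.18, adjusted p = 2.3e-05). Atp6v1g2, a G subunit best known from neurons, fell by 1.09 in P (SE 0.20, adjusted p = 8.4e-06). Atp6v1b1, a B subunit of acid-secreting cells, averaged 20.3 in MBNL KD and 83.4 in D1 (log2 fold change -2.02 ± 0.28).

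Of 4 further V0 genes, Atp6v0a4, the a subunit of kidney intercalated cells, had raw counts of 0, 4 and 6 in D1 and 80, 68 and 55 in P (log2 fold change 4.18 ± 0.46, adjusted p = 8.9e-10), and was too low to test in the knockdowns. Rnasek, a small membrane subunit, fell by 0.91 in P (SE 0.038, adjusted p = 7.3e-21) and rose by 0.22 in RBPMS KD1. Tcirg1, the a subunit of osteoclasts and lysosomes, was at 5571 ± 158 in D1 and 4669 ± 259 in MBNL KD, a log2 fold change of -0.25 ± 0.035, while that of Atp6v0a1 was -0.94. Atp6v0d2 did not reach the test in any comparison with D1.

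Of 12 assembly and regulatory genes, 5 were higher and 5 lower in P, 3 and 2 in RBPMS KD1, and 4 and 5 in MBNL KD, where 77.9%, 59.1% and 67.5% of all genes passed. Dmxl2, part of the rabconnectin complex that brings V1 onto V0, fell from 4373 ± 251 to 1443 ± 61.2 in P (log2 fold change -1.60 ± 0.044, adjusted p = 6.9e-26). Tldc2, a TLDc domain protein, had a log2 fold change of -1.37 ± 0.62 in P (adjusted p = 0.043) on very few counts, 22, 8 and 16 in D1 and 16, 3 and 0 in P, which overlap.

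The V-ATPase stands beside the Ragulator and Rag GTPases at the lysosome, which report nutrients to mTORC1. Of 12 such genes tested, 7 were higher and 3 lower in P, where 40.4% and 37.6% of all genes were. In RBPMS KD1, 11 were higher, as 29.5% of all genes were, and 1 did not pass. The MBNL KD libraries had 6 higher and 3 lower, beside 33.8% and 33.7%. Rragd, the RagD GTPase, rose from 31.4 ± 4.30 to 1522 ± 106 scaled counts in P (log2 fold change 5.59 ± 0.11, adjusted p = 2.6e-30), and Fnip2, which partners folliculin, rose by 1.23 (SE 0.026, adjusted p = 3.7e-29). Of the 4 MiT/TFE factors, 3 were higher and 1 lower in P. Tfeb rose from 1417 ± 102 to 3044 ± 60.7 in P (1.10 ± 0.047, adjusted p = 1.4e-20). It rose by 0.30 in RBPMS KD1 (SE 0.053, adjusted p = 1.7e-05) and had a log2 fold change of -0.47 ± 0.059 in MBNL KD. Tfec, at far lower counts, fell by 1.78 in P (SE 0.48, adjusted p = 0.0012), rose by 1.20 in RBPMS KD1 (SE 0.34, adjusted p = 0.0035), and averaged 286 ± 3.90 in MBNL KD against 21.9 ± 10.3 in D1.

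Lysosomal proteins were largely higher in RBPMS KD1: 28 of 32 tested passed the test as higher and 2 as lower, beside 29.5% of all genes in each direction, with a median log2 fold change of 0.43, against 0.13 for the membrane sector. Atp6ap1, which fell there by 0.85, stood below every one of the 32, the lowest of which were Lipa at -0.72 (adjusted p = 3.3e-19) and Scarb2 at -0.58 (adjusted p = 1.2e-15). Grn, progranulin, rose by 0.76 (adjusted p = 2.2e-20), and these 3 genes were picked after their values were seen. In P, 15 were higher and 12 lower, beside 40.4% and 37.6% of all genes, with a median of -0.012 that was 0.20 under quantile normalization. Cln3 rose by 1.20 (adjusted p = 6.4e-15) and Npc1, a cholesterol exporter, fell by 1.18 (adjusted p = 6.7e-26). In MBNL KD, 10 were higher and 15 lower, as were 33.8% and 33.7% of all genes (median -0.080, and 0.022 under quantile normalization), and the 2 with the largest fold were the enzymes Ppt1 at -1.87 and Tpp1 at -1.51.

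**Figure D4:**
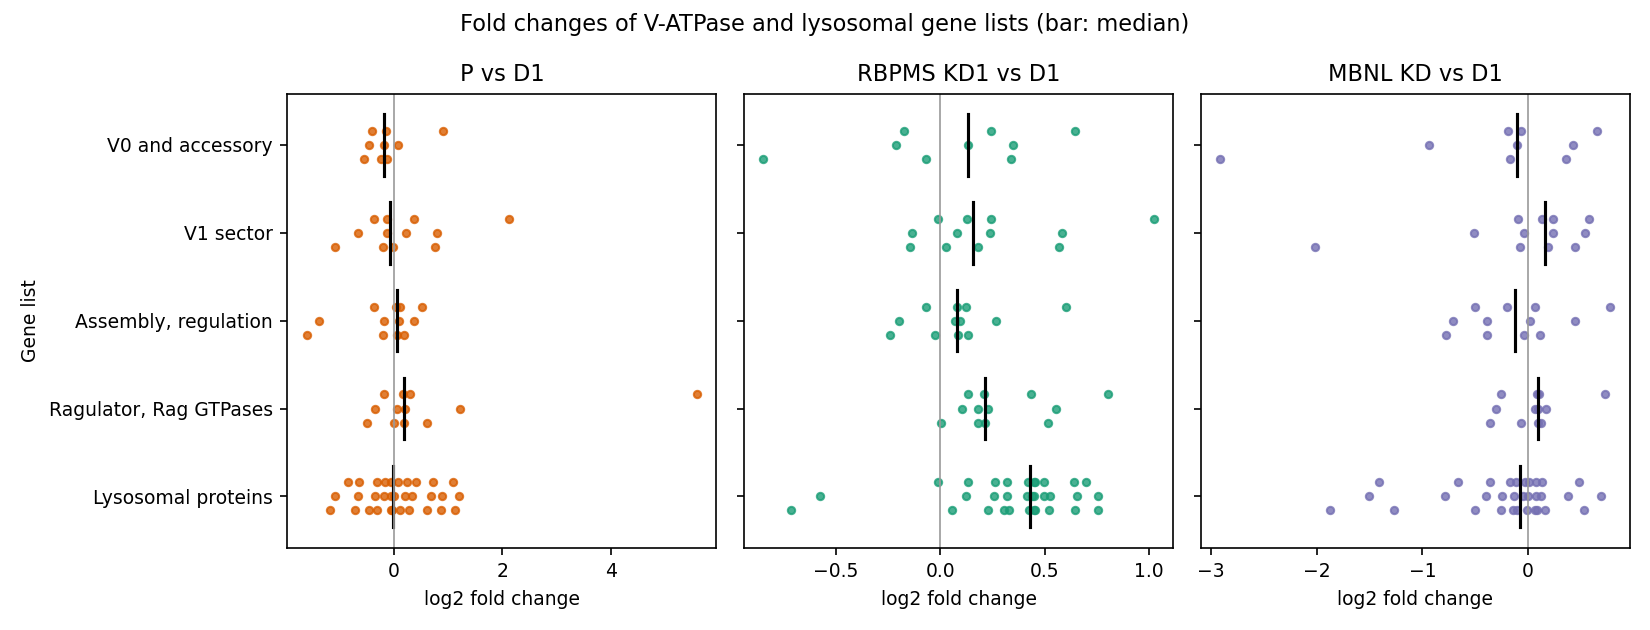
Log2 fold changes against D1 (x axis, a different range in each panel) of the genes of 5 lists (y axis); points are genes, offset for sight, and black bars are list medians. In RBPMS KD1 most of the 32 lysosomal proteins lie right of 0 (median 0.43) while the lowest membrane sector point, Atp6ap1 at -0.85, lies left of all of them; in MBNL KD Atp6v0e1 lies at -2.91.

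Over the 12 libraries, the genes whose log2 CPM followed Atp6v0e1 most closely were Aar2, a factor of spliceosome assembly (Pearson r = 0.999), Ap2s1, the small subunit of the AP-2 clathrin adaptor (0.999), Akr1a1, an aldehyde reductase (0.999), Adamts2, a procollagen protease (0.998), and Ube3c, a ubiquitin ligase (0.998), of 12645 genes ranked. These correlations describe the drop in MBNL KD that the points share. Akr1a1 averaged 6963 in MBNL KD against 45593 in D1 (log2 fold change -2.70), Ap2s1 had -1.74 and Adamts2 -1.21. Among the members themselves, r with Atp6v0e1 was 0.931 for Atp6v0a1, 0.795 for Atp6v0d1, 0.656 for Atp6v0e2, 0.026 for Atp6v0c, -0.231 for Atp6v0a2, -0.454 for Atp6v0b, -0.709 for Atp6ap2 and -0.770 for Atp6ap1.

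The genes beside Atp6v0e1 in the RefSeq order had smaller differences in MBNL KD. Crebrf averaged 2050.4 ± 84.6 in MBNL KD against 2720 ± 75.4 in D1 (log2 fold change -0.40), Bnip1 785 ± 45.0 against 866 ± 49.2 (-0.14), and Nkx2-5 49.1 ± 9.11 against 31.4 ± 6.41 (0.65). The lncRNA LOC120095059, which lies within the span of Atp6v0e1, averaged 15.7 ± 1.64 against 21.2 ± 7.09. The library kit named in the labels keeps strand, but the strand setting of the counting is not given in the sources used here, so reads of the overlapping genes may not be separated. Rpl26l1 and LOC134480770, the next on that side, were not among the genes of the raw counts under those symbols.

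The endothelial sum of 4 markers ran from 25.8 to 29.6 scaled counts in D1 and from 401 to 492 in P, where Tek averaged 315 against 23.9 in D1 and Cdh5, at 0 in D1, averaged 122. It ran from 66.9 to 70.8 in RBPMS KD1, where Tek averaged 59.9, and from 30.5 to 52.4 in MBNL KD, above D1 in every library. Its part in the results was not tested. Of 5 macrophage markers, Ptprc and Adgre1 were at 3 counts or fewer in every D1 library, and the sum, 5182 to 5550 in D1, 7499 to 7727 in RBPMS KD1, 4324 to 4517 in P and 4647 to 4931 in MBNL KD, was nearly all Cd14. Csf1r, at low counts, averaged 58.0 in MBNL KD against 23.6 in D1. Of 4 epithelial markers, Epcam and Cdh1 were at or near 0 in D1 and both knockdowns, and the sum of 3159 to 3315 in D1, 7125 to 7385 in P, 3453 to 3680 in RBPMS KD1 and 4757 to 4829 in MBNL KD was nearly all Krt8. The part of these markers in the results was not tested.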

How the data were processed

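Poly(A) RNA of 12 libraries was sequenced by the authors as paired-end reads. Per the study's methods reads were subsampled to a common number, aligned with STAR 2.7.11b to mRatBN7.2 and counted with featureCounts on RefSeq genes (FastQC 0.11.9, MultiQC 1.14, edgeR 3.40.2 and DESeq2 1.38.3 are also in the submitters' notes). The deposited raw counts are whole numbers per gene. Library totals exceed the subsampled read number, and whether the mates of a pair were counted apart is not given in the sources used here. The authors' second table holds a signal per gene after noise removal and quantile normalization, used only as an alternative. The files name genes by symbol, without identifiers or coordinates.

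Each pair of groups was fitted alone, on the counts as deposited, with edgeR 4.0.16 in R 4.3.3 (filterByExpr, TMM, quasi-likelihood test, Benjamini-Hochberg adjustment), and tested on simulated data beforehand. The SE is the log2 fold change over the root of F. Calls used an adjusted p of 0.05, or that with a fold over 2. Ratios were compared by exact permutation. DESeq2 1.42.0, limma 3.58.1, other scalings and filters, a replicate block and leaving out each library were alternatives. The study's methods call the repeats of a knockdown biological replicates. No 2 libraries agreed within sampling noise (chi-square per gene 3.68 to 7.70, and 12.8 for both pairs with MBNL KD replicate 3, without which no member's log2 fold change in MBNL KD moved by more than 0.0235). At these depths 3 counts are 0.033 to 0.037 CPM.

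The members and lists were chosen with earlier results of these data known. Named were all 9 members, other subunits past both thresholds against D1, of each other list the 2 members with the largest fold past both, the 5 genes of at least 100 scaled counts most correlated with Atp6v0e1, its 3 neighbours on each side, and the siRNA targets; others are said to be picked later. Promoters came from RefSeq (GRCr8) and siRNAs from the study's oligonucleotide list.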

Additional observations from a re-analysis of the deposited data

Results flagged for a closer look

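For 4 of the 9 genes all 3 libraries of RBPMS KD1 lay on one side of every D1 library and all 3 of MBNL KD on the other, as did 19.1% of the 15678 genes tested in both knockdowns. The log2 fold changes against D1 were 0.13 and -0.063 for Atp6v0d1, 0.24 and -2.91 for Atp6v0e1, 0.64 and -0.19 for Atp6v0e2, and -0.85 and 0.43 for Atp6ap1, RBPMS KD1 first. The difference between the knockdowns was not tested, since MBNL KD against D1 chose the genes, and both knockdowns share the D1 libraries. The value for Atp6v0d1 in MBNL KD did not keep its sign under every scaling.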

How the results depend on the processing

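The counts of members past each threshold stayed within 1.5 times under each of the 14 alternatives run: 8 or 9 in P against D1, RBPMS KD1 against D1 and P against RBPMS KD1, 0 with a fold over 2 in P and RBPMS KD1 against D1, and 1 with a fold over 2 in MBNL KD. Of the values of single genes, 472 kept their direction and, where tested, their call, 13 moved by more than the spread between replicates, 17 lost their call and 2 changed sign. The sign changes were Atp6v0d1 in MBNL KD, at 0.0039 under quantile normalization and 0.0034 by limma on the deposited normalised values; the cause was not tested. MBNL KD values were sorted here by direction and by the spread between replicates, and not by their calls. Their loss of calls (6 to 4 lower members, given above) is therefore not among the 17. The lost calls were 2 of Atp6ap1 in P and 4 of Atp6v0c in RBPMS KD1, given above, and 11 of Atp6v0d1 between P and RBPMS KD1, whose value came down to -0.0030 under quantile normalization (adjusted p = 0.91) and -0.0029 by limma (adjusted p = 0.90). Leaving out single libraries moved Atp6v0c in RBPMS KD1 between -0.081 and -0.054 and Atp6v0d1 between P and RBPMS KD1 from -0.073 to -0.054. Atp6v0e1 in MBNL KD was -2.81 by limma. Same-numbered libraries did not deviate together (correlations -0.038 to 0.035), so the numbers do not pair them; with the replicate block 9 members passed in each tested comparison, and 12919, 9401 and 10719 genes passed in P, RBPMS KD1 and MBNL KD against D1, against 13103, 9393 and 10833. Genes past both thresholds were 2933 in P with at least 10 counts in every library against 4641, and by limma 209 against 745 in RBPMS KD1 and 784 against 1643 in MBNL KD.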
